A study of Mus musculus with 12 samples.

Results

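The sites described here are loci of open chromatin at which the wild-type sham list alone had no peak summit within 200 bp. A missing summit does not show that a site was closed. They were chosen from 4 deposited lists of ATAC-seq peak summits of mouse dorsal root ganglia by pooling all summits and chaining neighbours at most 200 bp apart into loci. A locus was kept when it held a summit of wild-type injured, Silc1-/- sham and Silc1-/- injured ganglia and none of wild-type sham ganglia. This gave 3660 of 78381 loci (4.67%), or 20.3% of the 18007 loci that the 3 other lists held. Presence and absence of a summit is what chose these loci, so that pattern is a description and not a result.

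The 4 groups were Silc1+/+ wild-type mice after a crush of the sciatic nerve, Silc1-/- mice after a sham operation, Silc1-/- mice after the crush, and wild-type mice after a sham operation. Silc1 is a long noncoding RNA gene, and the study asked how its loss and nerve injury relate to chromatin accessibility. Each group had 3 libraries, each made from 6 fresh ganglia of lumbar levels L4 to L6 as whole tissue, and 1 summit list was used for each group. Age, the time after surgery, the way the Silc1 allele was made, and whether a library pooled animals were not given in the sources used here. The labels mention purchased C57black6 Ola HSD males and strains bred in house without saying which animals gave which library. With 1 list per group there is no spread between animals, and no difference below was tested. Read totals are not in the files, so depth is unknown, and intervals are 95% Wilson intervals that cover counting error only. In whole ganglia, fewer cells with a site open and less opening per cell cannot be told apart.

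In ATAC-seq a transposase cuts accessible DNA, and a peak caller lists the places where cuts pile up, with the summit at the top of the pile. Accessible sites are chiefly promoters, which are open in many cell types, and distal regulatory elements, which differ more between cell types. Whether a weak site is listed depends on sequencing depth as well as on accessibility. Dorsal root ganglia contain sensory neurons, satellite glia, Schwann cells, vessels and immune cells, and sensory neurons switch on a growth programme after their peripheral axon is crushed.

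Promoters with such a locus came in 2 forms, and 3 of each are shown because they carry the main distinction in these data. In the first form the wild-type sham list did have a summit beyond the 200 bp joining distance and within 1 kb. The sequences are from RefSeq (GRCm38.p6, the same build as mm10), run 5′ to 3′ on the strand of the gene from 250 bases before to 50 after its start, and have in capitals the stretch from the first to the last summit of the locus. Klf4, a transcription factor that restrains axon growth in neurons, lies on the minus strand at chr4:55532426-55532725. Sp1, a factor that binds GC boxes, lies on the plus strand at chr15:102406066-102406365. Nup98, a nuclear pore protein, lies on the minus strand at chr7:102210117-102210416.
Klf4: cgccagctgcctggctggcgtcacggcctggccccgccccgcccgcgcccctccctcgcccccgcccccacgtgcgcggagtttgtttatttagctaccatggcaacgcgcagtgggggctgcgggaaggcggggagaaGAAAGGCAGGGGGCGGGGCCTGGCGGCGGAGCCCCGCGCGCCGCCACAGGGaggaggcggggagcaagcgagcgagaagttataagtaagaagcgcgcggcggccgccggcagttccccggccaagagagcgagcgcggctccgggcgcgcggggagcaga
Sp1: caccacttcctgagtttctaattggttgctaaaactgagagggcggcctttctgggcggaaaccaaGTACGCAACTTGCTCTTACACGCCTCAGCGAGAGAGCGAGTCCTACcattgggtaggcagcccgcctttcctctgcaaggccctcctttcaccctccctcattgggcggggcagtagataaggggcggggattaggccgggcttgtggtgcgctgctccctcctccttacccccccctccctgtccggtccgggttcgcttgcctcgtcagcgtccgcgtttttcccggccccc
Nup98: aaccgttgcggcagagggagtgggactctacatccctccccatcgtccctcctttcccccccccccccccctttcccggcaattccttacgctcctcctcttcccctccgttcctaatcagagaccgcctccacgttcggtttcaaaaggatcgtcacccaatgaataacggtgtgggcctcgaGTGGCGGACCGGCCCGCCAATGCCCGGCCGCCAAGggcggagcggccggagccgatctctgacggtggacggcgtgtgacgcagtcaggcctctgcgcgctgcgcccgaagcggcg

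In the second form no wild-type sham summit lay within 1 kb, and for the 3 shown none lay within 10 kb. Scn10a, the sodium channel Nav1.8 of pain-sensing neurons, lies on the minus strand at chr9:119718983-119719282. Syn2, a synaptic vesicle protein, lies on the plus strand at chr6:115134652-115134951, and its capitals stop at the end of the window because 1 summit lay 53 bases after the start. Mlf1 lies on the plus strand at chr3:67373847-67374146.
Scn10a: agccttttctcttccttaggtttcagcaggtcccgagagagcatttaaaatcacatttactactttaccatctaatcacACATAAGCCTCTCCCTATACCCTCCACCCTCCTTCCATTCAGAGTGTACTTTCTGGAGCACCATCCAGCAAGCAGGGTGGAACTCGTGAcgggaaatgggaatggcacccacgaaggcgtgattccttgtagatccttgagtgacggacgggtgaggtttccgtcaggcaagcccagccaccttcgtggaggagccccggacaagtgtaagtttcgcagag
Syn2: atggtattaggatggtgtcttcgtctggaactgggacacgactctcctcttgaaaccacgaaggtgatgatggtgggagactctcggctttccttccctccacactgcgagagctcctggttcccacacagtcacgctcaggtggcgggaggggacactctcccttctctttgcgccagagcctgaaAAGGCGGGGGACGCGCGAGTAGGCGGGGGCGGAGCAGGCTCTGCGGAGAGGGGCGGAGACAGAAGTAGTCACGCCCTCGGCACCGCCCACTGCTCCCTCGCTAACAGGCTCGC
Mlf1: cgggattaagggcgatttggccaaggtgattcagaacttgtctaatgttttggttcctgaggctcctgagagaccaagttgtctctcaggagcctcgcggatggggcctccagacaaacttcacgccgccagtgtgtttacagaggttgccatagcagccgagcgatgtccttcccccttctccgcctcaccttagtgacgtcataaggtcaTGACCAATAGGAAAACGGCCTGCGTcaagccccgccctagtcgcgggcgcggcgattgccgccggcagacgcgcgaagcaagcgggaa

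Sp1 had scores of 57.97 for wild-type injured, 42.2 for Silc1-/- sham ganglia and 34.3 for Silc1-/- injured ganglia, with summits 139, 184 and 162 bases before the gene start. The score is a value of the authors' peak caller on a −log10 scale, and higher means a peak that stands out more from its surroundings. The nearest wild-type sham summit lay 275 bases after the start, 414 bp from the locus position, with a score of 2.92. Nup98 had scores of 63.6, 40.7 and 29.0 in the same order, and a wild-type sham summit of score 25.2 lay 226 bp away. At Klf4 the scores were 12.9, 10.4 and 7.52, against 11.3 for the wild-type sham summit 381 bp away. All 3 promoters were thus listed as open near the start in all 4 groups, with the summit of wild-type sham in another place.

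Scn10a had scores of 1.99 for wild-type injured, 5.36 for Silc1-/- sham ganglia and 3.09 for Silc1-/- injured ganglia, with the nearest wild-type sham summit 26.8 kb away. Its wild-type injured summit was weak: the lower quartile of the loci described here was 3.18 in that list, and the smallest score of the list was 1.30. Syn2 had 6.67, 11.2 and 7.31, with none nearer than 96.9 kb, and Mlf1 had 10.7, 11.2 and 6.55, with none nearer than 55.98 kb. All 3 starts lay far from any wild-type sham summit.

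The shortest list as deposited, wild-type sham, alone lacked the most loci, and the next shortest, Silc1-/- injured, came next. Wild-type sham, with 27279 summits, alone lacked 3660 loci. Silc1-/- injured, with 35815 summits, alone lacked 2665, Silc1-/- sham, with 48332, lacked 1371, and wild-type injured, with 43841, lacked 1039. As shares of the loci held by the 3 other lists these were 20.3% for wild-type sham (19.7 to 20.9), 15.7% for Silc1-/- injured, 8.72% for Silc1-/- sham and 6.75% for wild-type injured. When each list was cut to its 27279 highest-scoring summits, wild-type sham alone lacked 1388 loci, Silc1-/- injured 1883, Silc1-/- sham 1550 and wild-type injured 1096, so wild-type sham no longer came first. At scores of at least 5 in all lists the counts were 1381 for wild-type sham, 1854 for Silc1-/- injured, 756 for Silc1-/- sham and 398 for wild-type injured. Of the 3660 loci, 1386 (37.9%) were still held by all 3 lists at equal length, and 178 (4.86%) by none.

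**Figure D1:**
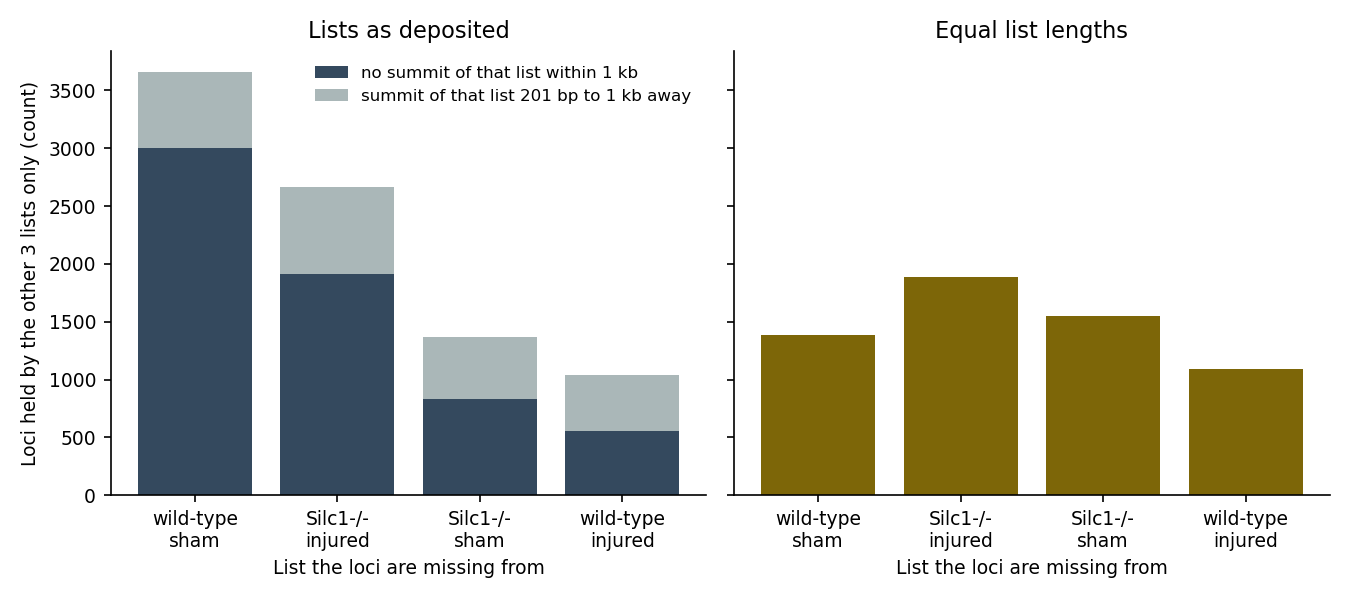
Number of loci that a single list lacks, for each of the 4 lists, as deposited (left, split by whether that list has a summit of its own within 1 kb) and at equal length (right). Wild-type sham leads with 3660 as deposited and has 1388 at equal length, fewer than the 1883 of Silc1-/- injured.

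The loci had lower scores than loci found in all 4 lists, and so had the loci that any other single list lacked. For the loci lacking wild-type sham the median score was 5.19 for wild-type injured (quartiles 3.18 and 8.06). It was 5.67 for Silc1-/- sham ganglia (3.63 and 8.25) and 4.39 for Silc1-/- injured (3.09 and 6.55). Loci found in all 4 lists had medians of 18.1, 13.1 and 9.39 in those lists, and 11.3 in wild-type sham. As percentiles among all loci of the list, where a higher percentile is a higher score, the medians were 45.8 for wild-type injured, 57.0 for Silc1-/- sham ganglia and 45.7 for Silc1-/- injured. The loci lacking wild-type sham sat near the middle of each list, and loci of all 4 lists at 81.3, 82.6 and 74.9. Scores came in steps: the 10 commonest values covered 57.4% of the loci in wild-type injured, 46.4% in Silc1-/- sham ganglia and 57.7% in Silc1-/- injured. Small differences between scores therefore carry little information. The score was highest in wild-type injured at 1309 loci (35.8%), in Silc1-/- sham at 1439 (39.3%) and in Silc1-/- injured at 912 (24.9%). By percentile within each list, wild-type injured came first at 835 (22.8%), Silc1-/- sham at 1719 (47.0%) and Silc1-/- injured at 1106 (30.2%). Percentiles take out differences in scale between lists but not in list length, and Silc1-/- sham was the longest list. Silc1-/- sham led on both scales, while wild-type injured and Silc1-/- injured changed places. At loci of all 4 lists, wild-type injured had the highest of the same 3 scores at 65.8% and the highest percentile at 39.8%. The median Silc1-/- sham percentile was also 57.0 at loci lacking wild-type injured alone.

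Wild-type sham lacked a smaller share of loci at higher scores. Among loci held by the 3 other lists, ranked by the lowest of their 3 score percentiles, wild-type sham lacked 56.6% (53.8 to 59.4) of those at percentiles up to 10 and 1.88% (1.39 to 2.55) of those over 90. For Silc1-/- injured the shares were 40.5% and 1.18%, for Silc1-/- sham 30.4% and 1.61%, and for wild-type injured 25.6% and 2.07%. In each list the share was smaller among high scores. Counting only loci with no wild-type sham summit within 1 kb, the shares were 50.7% and 0.188%, so strong sites with no wild-type sham summit around them were few.

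**Figure D2:**
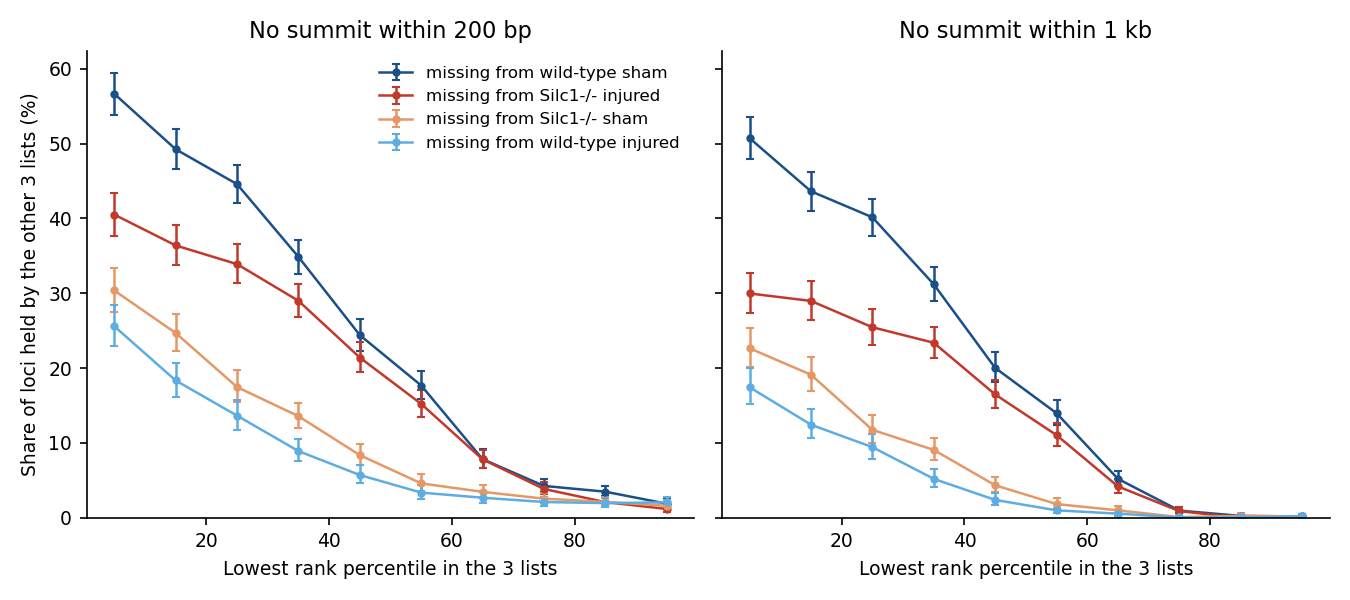
Percent of loci held by 3 lists that the remaining list lacks, against the lowest score percentile of the locus in those 3 lists, 1 line per lacking list, with Wilson intervals. Wild-type sham runs from 56.6% in the lowest bin to 1.88% in the highest and the lines of all 4 lists come together at high scores.

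The distance to the nearest wild-type sham summit spread over a wide range. A wild-type sham summit lay within 1 kb of 655 loci (17.9%; 16.7 to 19.2), at a median of 336 bp, 1 to 10 kb away from 611 (16.7%), and over 10 kb away from 2394 (65.4%; 63.9 to 66.9). Over all 3660 the median distance was 20.9 kb, and 1075 had none within 50 kb. The wild-type sham summit beside the 655 loci had a median score of 7.86. Silc1-/- injured had a summit of its own within 1 kb of 28.3% of the loci it alone lacked, Silc1-/- sham of 39.3% and wild-type injured of 46.6%.

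The strongest loci mostly had a wild-type sham summit within 1 kb. All 3 scores were at least 10 at 186 loci, and 170 of these had a wild-type sham summit within 1 kb. Of the other 16, 10 had none within 10 kb. With all 3 scores at least 5 there were 732 loci, of which 321 had a wild-type sham summit within 1 kb and 411 had none. At the edge of the joining distance, 161 loci with a wild-type sham summit up to 50 bp beyond the 200 bp limit had median scores of 11.2 in wild-type injured, 9.35 in Silc1-/- sham, 8.54 in Silc1-/- injured and 7.86 at that wild-type sham summit. Outside the set, 231 loci of all 4 lists with it less than 50 bp inside the limit had 12.5, 10.5, 10.6 and 7.86.

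**Figure D3:**
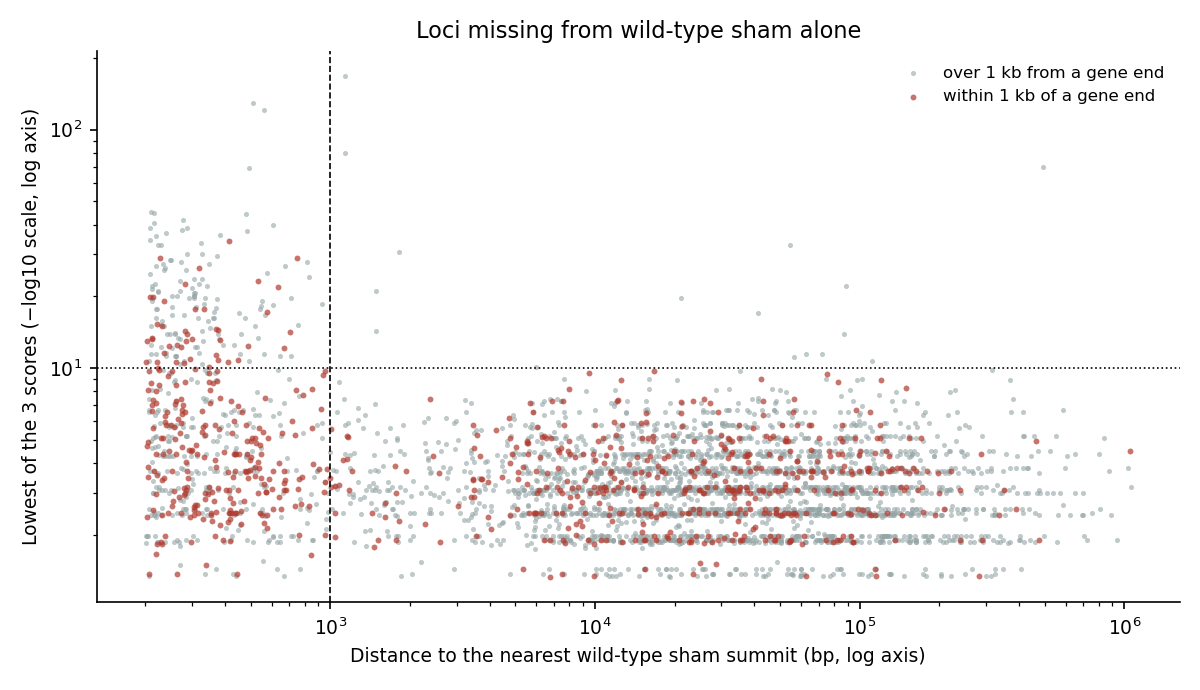
Lowest of the 3 scores of each locus (log axis) against the distance to the nearest wild-type sham summit (log axis), in red within 1 kb of a gene end, with lines at 1 kb and at a score of 10. Of the 186 loci with all scores at least 10, 170 lie left of 1 kb, and the low scores form stripes because scores come in steps.

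Position relative to genes was not used to choose the loci. A locus lay at a gene end, here within 1 kb of either end of a protein-coding gene or a long noncoding RNA gene, in 20.5% of the 3660 (19.2 to 21.8). The share depended on the settings: it was 35.7% with summits joined within 50 bp and 15.6% with joining within 1000 bp. At scores of at least 10 in all lists it was 36.2%. The share over all loci was computed at the main settings alone, so these values have no like share to be set against. The share was 39.1% for loci lacking Silc1-/- injured alone, 23.0% for Silc1-/- sham, 21.1% for wild-type injured, 55.6% for loci of all 4 lists and 24.2% over all loci. The loci with a wild-type sham summit within 1 kb were at gene ends for 40.6% (36.9 to 44.4), and the rest for 16.1% (14.8 to 17.5). Among loci with no summit of the lacking list within 1 kb, the share was 34.4% for Silc1-/- injured, 13.9% for Silc1-/- sham and 10.1% for wild-type injured. Of the 3660, 42.9% lay inside genes away from their ends and 36.6% outside genes, and 50.6% were over 10 kb from any gene end. They made up 3.91% of the loci on chromosome 7, the lowest of the autosomes, and 5.36% on chromosome 3, the highest, with 4.47% on X. The locus with the highest lowest score, with 168 for wild-type injured, 187 for Silc1-/- sham ganglia and 324 for Silc1-/- injured, was mitochondrial, and 11 loci lay on the mitochondrial genome or unplaced sequences.

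Of 21883 protein-coding genes, 689 (3.15%) had such a locus within 1 kb of an end, and 356 of these (51.7%) had no wild-type sham summit within 1 kb of either end. The 20 genes whose gene-end loci had the highest lowest score all had a wild-type sham summit 208 to 748 bp away. The score was highest in wild-type injured at 15 of the 20 (75%) and lowest in Silc1-/- injured at 18 (90%), against 65.8% and 66.1% of loci of all 4 lists, where the same 3 lists were compared. By percentile within each list the counts were 7 (35%) and 12 (60%), against 39.8% and 58.9%. Beside Sp1 and Nup98, given above, 9 of the other 18 are described as examples, picked by known role. Sap130, a subunit of the Sin3 corepressor, had 53.97 for wild-type injured, 40.3 for Silc1-/- sham ganglia and 28.9 for Silc1-/- injured, with a wild-type sham summit of 44.0 at 748 bp. Mier1, a corepressor, had 55.3, 42.8 and 17.7, and Nr1d2, a nuclear receptor of the circadian clock, had 26.4, 30.4 and 21.9. Of these, Sap130 had the highest wild-type sham score beside it. Others were Msh3, of mismatch repair (68.4, 34.1 and 26.4), and Nbn, of double-strand break repair (44.4, 22.7 and 19.9). Further ones were Cs, citrate synthase (48.7, 23.7 and 22.7), Vdac3, a channel of the outer mitochondrial membrane (17.8, 19.8 and 13.99), and Cse1l, a nuclear export factor for importin (26.2, 20.02 and 14.4). Cnot1, the scaffold of the deadenylase that shortens mRNA tails, had 24.9, 21.9 and 17.2. The remaining 9 were Klhl24, Hps3, Katnal1, Slc35e2, Tspan13, Tbc1d32, Usp48, Mospd3 and Arhgap18.

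Gene ends with no wild-type sham summit within 1 kb of the locus were found for 1.85% of protein-coding genes (405), and the 24 with the highest lowest score were listed after these values had been seen. Their lowest scores were 5.98 to 9.55, below those of the 20 genes above. They included Clint1, a clathrin adaptor (15.4 for wild-type injured, 9.503 for Silc1-/- sham ganglia and 9.74 for Silc1-/- injured, with wild-type sham 75.01 kb away), Itgb8, an integrin subunit (10.7, 14.8 and 8.91; 120.0 kb), and Onecut2, a transcription factor (10.7, 12.6 and 8.27; 149 kb). Ccl2, the chemokine that attracts monocytes, had a locus 48 bp outside the gene at chromosome 11, position 82035529, with 7.44, 9.40 and 8.10, and the nearest wild-type sham summit was 2387 bp away with a score of 5.59. Cacna1g, a T-type calcium channel, had 13.3, 5.98 and 6.15, and Trf, transferrin, had 13.4, 10.97 and 6.55. Some scores recur at several of these genes, since scores come in steps.

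**Figure D4:**
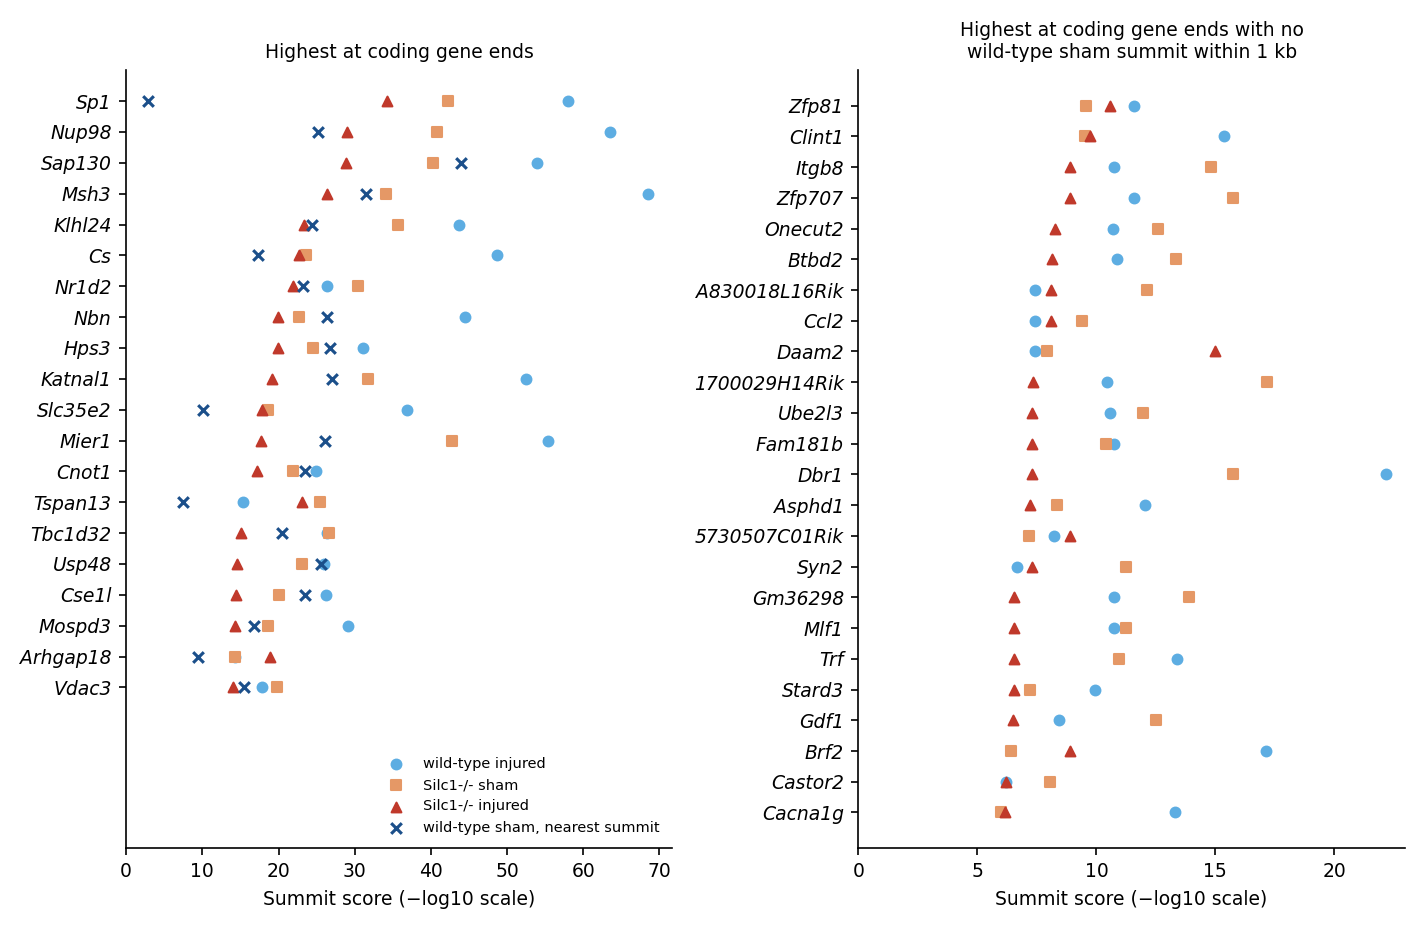
Score in each of the 3 lists that hold the locus, and of the nearest wild-type sham summit, for named loci at protein-coding gene ends; symbols at nearly equal scores overlap. The 20 highest loci (left, lowest scores 13.99 to 34.3) all have a wild-type sham summit within 1 kb, drawn as crosses, and the 24 with none (right, on a shorter axis) have lowest scores of 5.98 to 9.55.

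Among loci over 10 kb from any gene end, 9 of the 10 highest again had a wild-type sham summit within 1 kb. The exception lay on chromosome 12 at position 41515160, inside Immp2l, which encodes a mitochondrial inner membrane peptidase subunit, and 29.1 kb from an end of Lrrn3, a leucine-rich repeat membrane protein of neurons. It had scores of 74.8 for wild-type injured, 69.7 for Silc1-/- sham ganglia and 73.3 for Silc1-/- injured, and the nearest wild-type sham summit was 491 kb away. The 3 scores were close together, at percentiles 98.7, 99.3 and 99.1 of their lists. Other loci with no wild-type sham summit within 10 kb lay inside Itga9, an integrin subunit (33.0, 46.5 and 37.3), near Xcr1, a chemokine receptor of dendritic cells (26.4, 19.6 and 24.1), and near Vav1, a signalling protein of blood cells (18.3, 14.1 and 11.2).

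Genes of the ganglion and of injury were counted by loci within 50 kb of a gene end, which 24.6% of protein-coding genes had. Of 309 genes in 14 lists, 76 (24.6%; 20.1 to 29.7) had one. By role they were 8 of 25 sensory neuron identity genes, 7 of 28 ion channels, 9 of 45 regeneration-associated, 7 of 25 immediate-early, 7 of 30 axon guidance and 7 of 30 chromatin genes. For other cell types they were 5 of 20 for Schwann cells and satellite glia, 6 of 18 for macrophages, 3 of 10 for neutrophils, 2 of 12 for lymphocytes, 3 of 18 for endothelial and mural cells, 2 of 11 for fibroblasts and 2 of 13 for skeletal muscle, and 8 of 25 housekeeping genes had one. The interval of every list held the 24.6% of all genes, so no list stood apart at this count. Within 10 kb, 9.39% of list genes had one, against 8.48% of all genes, and within 100 kb 39.8%, against 38.3%.

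**Figure D5:**
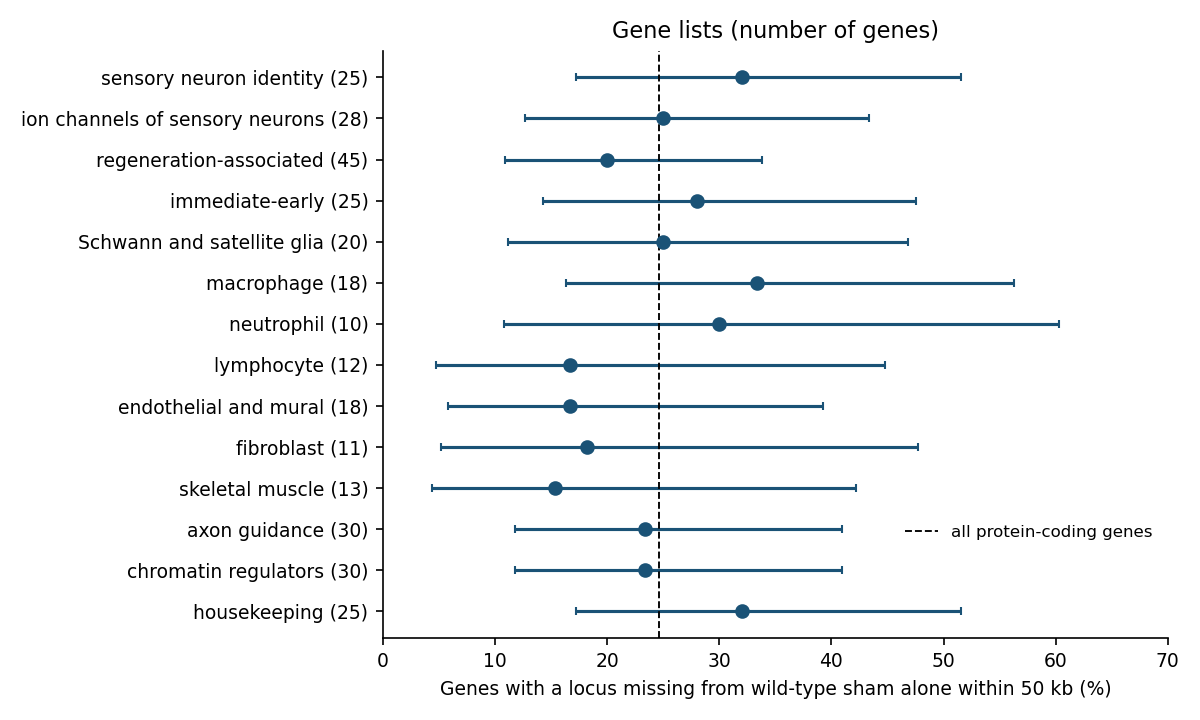
Percent of genes of each list with a locus within 50 kb of an end, with Wilson intervals, and the 24.6% of all protein-coding genes as a line. All 14 intervals cross the line.

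At the gene ends themselves 14 of the 309 genes (4.53%; 2.72 to 7.46) had a locus within 1 kb. The interval held the 3.15% of all protein-coding genes. Of these 14, 9 had no wild-type sham summit within 1 kb of the locus, against 405 of the 689 protein-coding genes with such a locus. The genes named next are thus examples. Stmn2, a tubulin-binding protein of growing axons, had one 99 bp outside the gene with 5.68 for wild-type injured, 7.88 for Silc1-/- sham ganglia and 4.10 for Silc1-/- injured, and the nearest wild-type sham summit was 57.8 kb away. Tlx3, a transcription factor of sensory neurons, had 4.53, 3.49 and 2.86 with wild-type sham 40.2 kb away. Slit1, a secreted guidance ligand, had 10.2, 4.43 and 5.36 with it 114 kb away, and Plxna2, a semaphorin receptor, had 7.44, 5.67 and 2.48 with it 62.7 kb away. Around these ends wild-type sham had no summit. Among genes induced early after stimulation, Jund, a subunit of AP-1, had 17.2, 10.9 and 5.15 with a wild-type sham summit at 1163 bp, and Ccn2, a matricellular protein, had 8.06, 6.37 and 4.39 with it at 4.85 kb. Myc, a growth-promoting transcription factor, had 9.05, 5.60 and 2.67, and Ctcf, the insulator protein, 17.1, 13.9 and 4.47, each with wild-type sham within 1 kb. Tac1, which encodes substance P, had a locus 4.01 kb from its end with 21.1, 16.7 and 27.3, and a wild-type sham summit at 564 bp.

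In 8 of the 309 genes (2.59%) such a locus lay within 50 kb and no wild-type sham summit did, against 1.8% of all protein-coding genes. They were Slit1, Ntng1, Gap43, Adgre1, Pdgfra, Pax7, Sema3a and Cntnap2. Gap43, a growth cone protein that rises in regenerating neurons, had its locus inside the gene at chromosome 16, position 42256045, with 3.18 for wild-type injured, 7.94 for Silc1-/- sham ganglia and 7.31 for Silc1-/- injured. Pdgfra, a receptor of fibroblasts, had 13.4, 4.92 and 4.39. Adgre1, the F4/80 antigen of macrophages, was 22.7 kb from the locus near Vav1 given above. Summits within 1 kb of gene ends were also counted for cell type markers. Sensory neuron markers gave 9, 12 and 8 of 25 in wild-type injured, Silc1-/- sham and Silc1-/- injured, against 8 in wild-type sham. Skeletal muscle markers gave 2, 2 and 2 of 13, against 1. For glial markers the counts were 9, 8 and 3 of 20, against 4. Macrophage markers gave 4, 4 and 2 of 18, against 3, and neutrophil markers 4, 1 and 1 of 10, against 3. Endothelial and mural markers gave 3, 1 and 2 of 18, against 2, fibroblast markers 2, 2 and 0 of 11, against 2, and lymphocyte markers 1, 1 and 0 of 12, against 1. Most markers of every cell type thus had no summit at an end in any 1 list. Of all protein-coding genes, 56.4% had a locus of any list within 1 kb of an end and 38.2% a locus of all 4 lists. The share for 1 list was not computed over all genes, so the counts do not check the tissue label. The part of cell composition in the loci was not tested.

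Zinc finger genes with the symbol stem Zfp had a locus within 1 kb of an end in 30 of 400 cases (7.5%; 5.30 to 10.5), against 3.15% of all protein-coding genes. They lay on 13 chromosomes. Of the 30, 20 had no wild-type sham summit within 1 kb of the locus, against 405 of the 689 protein-coding genes with such a locus. Zfp81 had 11.6 for wild-type injured, 9.55 for Silc1-/- sham ganglia and 10.6 for Silc1-/- injured, with wild-type sham 9.46 kb away, and Zfp707 had 11.6, 15.8 and 8.91 with it 12.6 kb away. Of the Zfp genes, 77.0% had a locus of any kind at an end, against 56.4% of all protein-coding genes. For loci of all 4 lists the shares were 49.75% and 38.2%, so Zfp genes were above all genes there too. Among genes with any locus there, 9.74% of Zfp genes and 5.58% of all genes had one of those described here. By that measure the share was 11.1% for olfactory receptor genes and 10.0% for protocadherin genes, each from 1 gene. Within 50 kb of an end, 41.03% of all Hox genes and 34.0% of all Zfp genes had such a locus, against 24.6% of protein-coding genes. Neighbouring genes can share a locus at this distance, so the genes of a family are not independent counts. Within 1 kb of an end, solute carrier genes had 16 of 389 and potassium channel genes with the stem Kcn 1 of 94. Hox genes had 1 of 39 and NADH dehydrogenase subunit genes with the stem Nduf 1 of 49. Of ribosomal protein genes 1.98% had one, and of olfactory receptor genes 0.0901%. Of 1228 miRNA genes, 8 (0.651%) had a locus within 1 kb of an end. At Mir148a the scores were 3.82 for wild-type injured, 4.97 for Silc1-/- sham ganglia and 3.09 for Silc1-/- injured, and the nearest wild-type sham summit lay 199 kb away.

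The share of genes with at least 1 locus was larger among long genes, which also offer more sequence. In the gene or within 10 kb, 12.1% of protein-coding genes had at least 1, and the share was 6.86% for genes of at most 20 kb, 14.1% up to 100 kb, 26.5% up to 300 kb and 45.5% above. A summit of any list was found for 68.4%, 89.8%, 97.6% and 99.1% of these genes. Per 100 summits, the loci described here numbered 1.53, 2.01, 2.47 and 2.85 in the same order of length, a rise whose cause was not tested. The genes named next were picked for holding most loci, and each such locus by the rule adds a summit to 3 lists and none to wild-type sham, whose whole list is also the shortest. Their counts are thus a description. Cntnap2, a neuronal adhesion protein of axons and 2241 kb long, had 6, with 20 summits for wild-type injured, 33 for Silc1-/- sham ganglia and 24 for Silc1-/- injured, against 11 in wild-type sham. Rbfox1, a neuronal splicing factor, had 3, with 12, 34 and 15 summits, against 1. Kirrel3, a synaptic adhesion protein, had 4, with 10, 13 and 14, against 1 in wild-type sham, and Erc2, an active zone protein, 4, with 14, 19 and 12, against 3. Frmd4a and Cdk5rap2 had 5 each. The targeted gene could not be checked here: Silc1, taken from general knowledge to be Gm9866, had its nearest such locus 1981 kb away, and Sox11, a neighbouring transcription factor of axon regeneration, 1799 kb away.

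Promoters carrying these loci had a higher GC content than promoters at large and a lower CpG ratio than promoters open in all 4 lists, as did those lacking Silc1-/- injured alone. The promoter set used was not complete and had no windows on chromosome 18, so the values below do not cover the whole genome. In 378 RefSeq promoter windows of 354 genes the median GC content was 61.3%. It was 63.3% in 7044 windows with a locus of all 4 lists and 52.7% in all 32851 windows of the set. The ratio of observed to expected CpG had a median of 0.687, against 0.828 and 0.384. It was 0.603 in the 256 windows with no wild-type sham summit within 1 kb of the locus and 0.847 in the 122 with one, so the windows beside a wild-type sham summit were the more like those open in all 4 lists. In 579 windows with a locus lacking Silc1-/- injured alone the median GC content was 60.7% and the CpG ratio 0.746. Motifs were searched on both strands over the 300-base windows. GGGCGG, the GC box, stood in 59.0% of the 378 windows (53.97 to 63.8), against 74.9% for all 4 lists and 35.7% of all promoters. CCGGAAG, bound by ETS factors, stood in 10.6% (7.87 to 14.1), against 24.1% and 8.86%. In windows lacking Silc1-/- injured alone these motifs stood in 65.6% and 14.3%. TGACGTCA, bound by CREB and ATF factors, stood in 5.56% (3.66 to 8.34), against 4.29% and 1.79%. TGANTCA, bound by AP-1, stood in 5.29%, against 3.72% and 7.81%. In windows lacking Silc1-/- injured alone these stood in 3.45% and 4.32%. The motifs given are examples from the 13 searched. Of the promoters printed above, Mlf1 holds TGACGTCA, and Scn10a holds none of the 13 motifs searched. A match describes the letters and says nothing of binding.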

How the data were processed

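ATAC-seq peak summits of 12 libraries (3 per group) were analysed as 4 lists, 1 per group. Alignment tool Bowtie2, peak caller MACS2 and build mm10 are named in the submitters' processing notes; versions, read filters, transposase shift and pooling of libraries were not given in the sources used here. The deposited score is on a −log10 scale, per the values of the authors' lists, with its smallest value just above 1.30; whether of p or q is not stated. Scores depend on depth and scale between lists. They were nevertheless set side by side per locus as deposited, beside percentiles within each list; the lowest of 3 scores ranked the named loci and the highest summit set a locus's position.

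Members and gene lists were chosen with earlier results of these data known. Summits at most 200 bp apart were chained. Genes and promoters were RefSeq GRCm38.p6. The gene annotation gave no strand, so either gene end was used. The promoter set was not complete and lacked chromosome 18. Named were the 20 highest loci within 1 kb of a protein-coding gene end, the 10 highest over 10 kb from any gene end, the 10 highest with no wild-type sham summit within 10 kb, up to 4 per gene list, the 10 genes with most members, and Silc1 and Sox11. Alternative settings varied the joining distance (50, 100, 500 and 1000 bp), the score (at least 5 or 10), the list length (the 27279 highest summits of each), the chromosomes (autosomes), the gene-end distance (500 and 2500 bp), the gene types (protein-coding only) and the neighbourhood (10 and 100 kb). The code was tested on simulated data. Tools were pandas 2.3.3, numpy 2.4.6 and matplotlib 3.10.9 under Python 3.11.15.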

Additional observations from a re-analysis of the deposited data

How the results depend on the processing

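The number of loci lacking wild-type sham alone, 3660, was 2591 to 3555 at joining distances of 50 to 1000 bp, 3005 without those that had a wild-type sham summit within 1 kb and 3536 on autosomes. It was 1388 at equal list lengths, 1381 and 495 with scores of at least 5 and 10 in all 4 lists, and 733 and 186 with these scores asked of the 3 other lists. The share at gene ends, 20.5%, was 35.7%, 24.9%, 16.6% and 15.6% at joining distances of 50, 100, 500 and 1000 bp. With scores of at least 5 and 10 in all lists it was 30.7% and 36.2%, in the 3 lists 26.6% and 23.1%, at equal lengths 26.7%, and with no wild-type sham summit within 1 kb 16.1%. It was 16.1% and 28.0% for ends within 500 and 2500 bp and 16.9% for protein-coding genes. The median over loci of the lowest of the 3 score percentiles, 26.9, was 40.8, 31.4, 22.2 and 21.3 at joining distances of 50, 100, 500 and 1000 bp, 21.7 and 21.8 with scores of at least 5 and 10 in all lists, 23.4 and 42.2 in the 3 lists, 22.96 at equal lengths and 24.2 with none within 1 kb. Of list genes, 24.6% had a locus, and 9.39% within 10 kb, 39.8% within 100 kb and 12.3% at equal lengths. At equal lengths there were also fewer loci, 1388 against 3660. The share over all protein-coding genes was not computed at that setting, and the cause of the lower share was not tested. The median GC of promoters was 61.3%, and 60.7% with loci within 1 kb of the start. Fewer loci pass a higher score and wider windows reach more genes by construction. No paired analysis was possible because each group has 1 list and no test was made, and no single replicate could be left out for the same reason. Depth is unknown and limits which weak sites a list can hold.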
